A study of Danio rerio with 9 samples.

Results

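The genes described here are 8 transcription factors that set and hold the identity of hepatocytes, the main cells of the liver: hnf4a, foxa1, foxa2, foxa3, cebpa, cebpb, prox1a and nr1h4. They were chosen by name, with no measured value in the rule. In the gene table of 33716 IDs, 7 of the 8 were found by their own symbol, and prox1a was found as prox1 (ENSDARG00000055158) through its RefSeq synonym. Each name gave 1 gene ID, and all 8 were above the filter on low values that left 13290 genes for testing.

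Hepatocyte identity rests on a small network of factors that bind each other's promoters and those of the genes for plasma proteins, bile acids and metabolism. In mammals, FOXA proteins open chromatin at liver enhancers, HNF4A drives hepatocyte genes, and C/EBP factors act on metabolic and acute-phase genes. PROX1 acts in the outgrowth of the liver bud, and the bile acid receptor FXR, encoded by nr1h4, senses bile acids.

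Liver RNA was sequenced in 9 libraries: 3 from fish labelled maternal-zygotic focad null, 3 from fish labelled maternal-zygotic pdia6 null and 3 from wild-type AB fish. A maternal-zygotic null has neither the gene's product from its mother nor a working copy of its own. Focad encodes focadhesin and pdia6 an enzyme that forms and rearranges disulfide bonds in proteins of the endoplasmic reticulum. The pdia6 null and wild-type fish were 3.5 months old, and no age is given for the focad null fish in the labels used here. AB is named for the wild type only, and no treatment is given for any group. The labels do not say whether replicate libraries stem from different fish. The p-values therefore measure only how far these libraries spread, and that spread may be technical.

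Library totals recovered from the deposited values were 46.1 to 54.5 M reads. Levels are FPKM, reads per length and depth, rescaled so that the median ratio of 7660 genes was equal between libraries, and are called scaled FPKM. Hepatocyte markers were high throughout: fabp10a stood at 11024 to 33693 scaled FPKM and tfa (transferrin) at 7464 to 13790. In 2 libraries the targeted transcript was not below the wild-type range. Focad stood at 0.53 scaled FPKM in the library labelled focad null 2, within the wild-type range of 0.52 to 1.13, against 0.28 and 0.24 in focad null 1 and 3. Pdia6 stood at 44.3 in the library labelled pdia6 null 1, within the wild-type range of 14.2 to 265, against 0.90 and 0.91 in pdia6 null 2 and 3. That range is wide and ran in the order of hspa5, a chaperone gene of the endoplasmic reticulum. In wild type 1 to 3, pdia6 was 265, 14.2 and 56.4 and hspa5 734, 10.7 and 199. Hspa5 was 2359 in pdia6 null 1, against 16.3 and 37.9 in pdia6 null 2 and 3. A transcript level does not give the genotype, and these 2 libraries are called doubtful for that level alone. Values without these 2 libraries are given where they change a result. Markers of other tissues also differed. Summed intestine markers were 5041, 18273 and 3261 scaled FPKM in focad null 1 to 3, 2099 to 6858 in pdia6 null and 1006 to 2508 in wild type. The gene rbp2 alone held 52.6% to 66.2% of that sum in pdia6 null. The median of the list on the log2 scale, each gene centred on its mean, was 1.70, 4.08 and -0.29 in focad null, -1.04 to -0.88 in pdia6 null and -0.999 to -0.75 in wild type. Summed exocrine pancreas markers were 5864, 1312 and 2736 in focad null, 698 to 1426 in pdia6 null and 564 to 1738 in wild type.

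None of the 8 members passed the test in any comparison. The test was limma on log2(scaled FPKM + 1) with Benjamini-Hochberg adjustment over 13290 genes at 0.05. Against wild type, 0 of 8 were called in focad null, where 1.56% of all genes were called, and 0 of 8 in pdia6 null, where 1.23% were. Between focad null and pdia6 null, 0 of 8 were called, against 1.2% of all genes. The 3 comparisons share libraries, so they are not independent. Before adjustment, p was under 0.05 for 0 of 8 in focad null against wild type, for 1 of 8 in pdia6 null against wild type and for 1 of 8 in focad null against pdia6 null. The shares over all genes were 14.7%, 12.5% and 17.9% in the same order. Limma voom on the recovered reads also called 0 members in each comparison. In the authors' deposited tables of each null against wild type, every member had an adjusted p of 1.

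**Figure D1:**
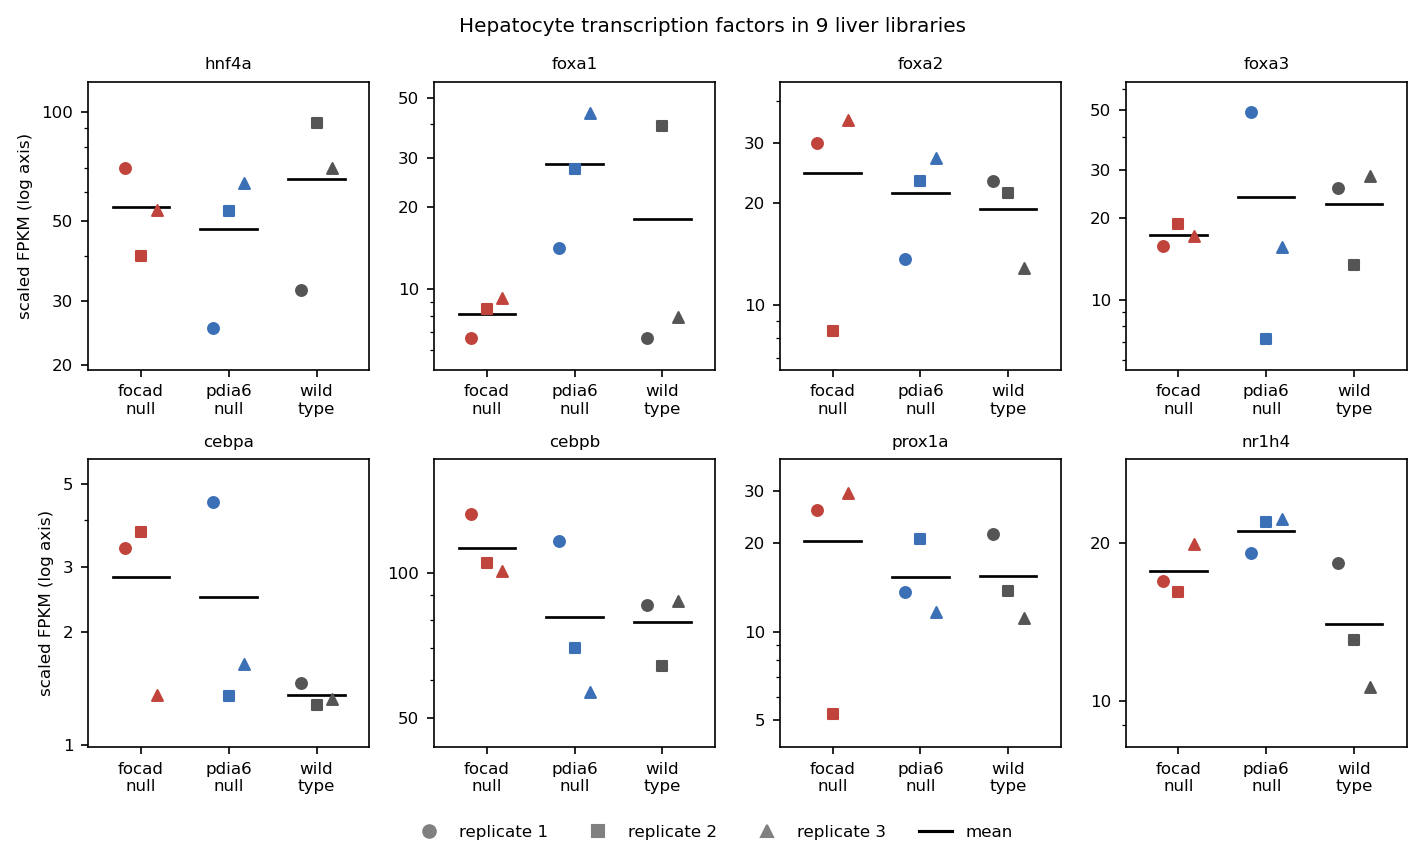
Scaled FPKM (log axis, a separate scale for each gene) of the 8 members in each of the 9 libraries, by group, with a line at each group mean. The groups overlap for most members, and the exceptions are cebpb in focad null against wild type, nr1h4 in pdia6 null against wild type and foxa1 in focad null against pdia6 null.

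The nuclear receptor hnf4a (ENSDARG00000021494), known in mammals as a central activator of hepatocyte genes, was among the highest members. It stood at 70.0, 40.1 and 53.6 scaled FPKM in focad null 1 to 3, at 25.3, 53.3 and 63.8 in pdia6 null 1 to 3 and at 32.1, 93.2 and 70.0 in wild type 1 to 3. The lowest value of pdia6 null and the lowest of wild type both came from replicate 1, and the 3 groups overlapped. The log2 difference was -0.16 ± 0.47 (SE) in focad null against wild type, with a limma adjusted p of 0.926. In pdia6 null against wild type it was -0.42 ± 0.47, with an adjusted p of 0.803. Leaving out the library labelled pdia6 null 1 brought that difference to -0.03. In whole liver, fewer cells of a type and less RNA per cell cannot be told apart, here and for every gene below.

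Among the FOXA genes, foxa1 (ENSDARG00000102138) varied most within groups. Its level was 6.61, 8.43 and 9.28 scaled FPKM in focad null, 14.1, 27.4 and 44.0 in pdia6 null and 6.66, 39.3 and 7.93 in wild type. All 3 focad null libraries lay below all 3 pdia6 null libraries, and wild type 2 stood far above wild type 1 and 3, which were among the lowest. For focad null against pdia6 null the mean was 8.11 ± 1.36 against 28.5 ± 14.98 scaled FPKM (SD, n = 3 each), a log2 difference of -1.57 ± 0.64 (SE, 95% interval -3.02 to -0.12). The limma adjusted p was 0.251, and the two-sided exact permutation p was 0.1, the smallest that 3 against 3 libraries allow. It was the only member whose libraries did not overlap in this comparison, 1 of 8, where 24.4% of all genes did not overlap. Without the libraries labelled focad null 2 and pdia6 null 1, the log2 difference was -2.02 with an adjusted p of 0.332.

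Against wild type, foxa1 depended on 1 library. Its log2 difference was -0.63 ± 0.64 in focad null (limma adjusted p = 0.705) and 0.94 ± 0.64 in pdia6 null (adjusted p = 0.624). Without wild type 2, the values were 0.13 in focad null (adjusted p = 0.948) and 1.70 in pdia6 null (adjusted p = 0.218), so the direction in focad null turned. Of the 4 libraries highest in foxa1, 3 were pdia6 null and the other was wild type 2.

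Foxa2 (ENSDARG00000003411), the family member tied in mammals to endoderm formation and bile acid handling, stood at 29.95, 8.39 and 35.1 scaled FPKM in focad null. It stood at 13.7, 23.3 and 27.2 in pdia6 null and at 23.3, 21.3 and 12.9 in wild type. Focad null thus held the 2 highest libraries and the lowest, which was the one labelled focad null 2. The log2 difference from wild type was 0.16 ± 0.52 in focad null (limma adjusted p = 0.934) and 0.77 without that library (adjusted p = 0.396). In pdia6 null against wild type it was 0.14 ± 0.52, with an adjusted p of 0.965.

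Foxa3 (ENSDARG00000012788), which in mice supports the glucose transporter of hepatocytes, stood at 15.8, 19.1 and 17.2 scaled FPKM in focad null. Pdia6 null read 49.1, 7.19 and 15.7, and wild type read 25.8, 13.5 and 28.7. Focad null was narrow, while pdia6 null held the highest and the lowest of the 9 libraries. The log2 difference from wild type was -0.30 ± 0.59 in focad null (limma adjusted p = 0.877) and -0.25 ± 0.59 in pdia6 null (adjusted p = 0.936). The pdia6 null value turned with single libraries: it was -0.95 without the library labelled pdia6 null 1 and 0.36 without pdia6 null 2.

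The FOXA genes did not share a ranking across libraries. Foxa1 was the highest of the family in pdia6 null 2, pdia6 null 3 and wild type 2, where it made up 47.3%, 50.6% and 53.0% of the summed FOXA level. Foxa2 led in focad null 1 and 3, with 57.2% and 56.9%. Foxa3 led in the library labelled focad null 2, in the library labelled pdia6 null 1 and in wild type 1 and 3, with 53.1%, 63.8%, 46.3% and 57.9%. The ratio of foxa1 to foxa3 was above 1 in the foxa1-led libraries, at 3.81, 2.80 and 2.92, and between 0.26 and 0.54 in the other 6. The summed level varied less, from 35.9 scaled FPKM in the library labelled focad null 2 to 86.9 in pdia6 null 3. Group means of that sum were 49.95 ± 13.0 in focad null, 73.9 ± 14.8 in pdia6 null and 59.8 ± 12.8 in wild type (SD, n = 3 each), with overlapping libraries in each pair of groups.

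The libraries highest in foxa3 were also those highest in hspa5, which encodes the main chaperone of the endoplasmic reticulum. Hspa5 stood at 8.64, 19.6 and 19.8 scaled FPKM in focad null, at 2359, 16.3 and 37.9 in pdia6 null and at 734, 10.7 and 199 in wild type. The 3 highest libraries for foxa3, the one labelled pdia6 null 1 with wild type 3 and wild type 1, were the 3 highest for hspa5. Hsp90b1 and xbp1, also of the endoplasmic reticulum stress response, shared only part of this order. Both were highest in the library labelled pdia6 null 1 (2837 and 349). Hsp90b1 was 810 in wild type 1, but higher in pdia6 null 3 (218) than in wild type 3 (201). Xbp1 was higher in pdia6 null 3 (141) and focad null 3 (140) than in wild type 3 (127) and wild type 1 (116). The 2 lowest libraries for hnf4a, the one labelled pdia6 null 1 and wild type 1, were the 2 highest for hspa5. Wild type 3, next highest for hspa5 (199), was among the highest for hnf4a (70.0). This is a description over 9 libraries, and the part of hspa5 in the foxa3 and hnf4a levels was not tested.

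**Figure D2:**
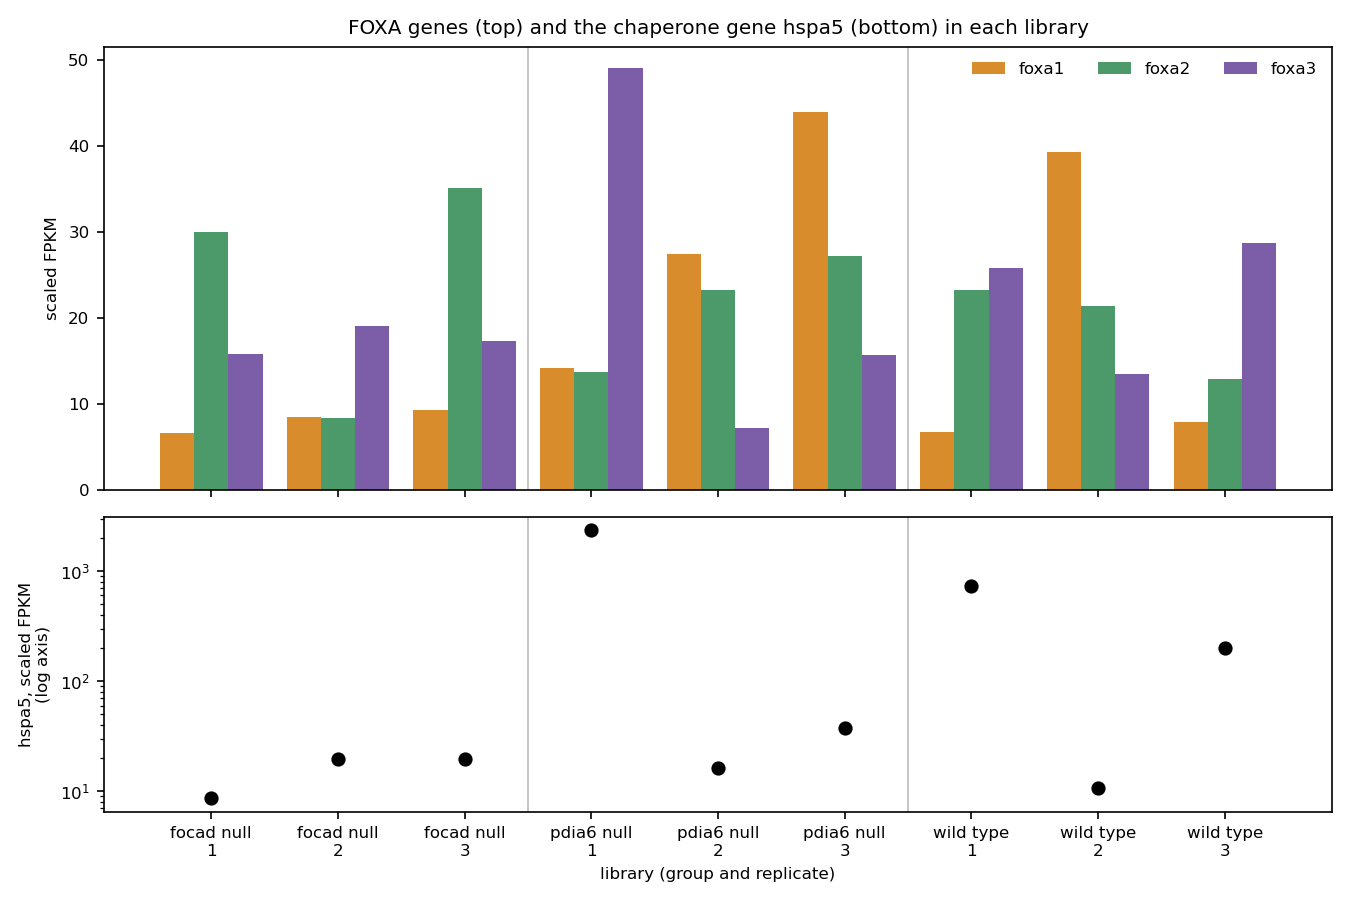
Scaled FPKM of foxa1, foxa2 and foxa3 (bars, upper panel, linear axis) and of hspa5 (points, lower panel, log axis) in each of the 9 libraries. The leading FOXA gene changes between libraries of the same group, and the 3 libraries with the highest foxa3 (49.1, 28.7 and 25.8) have the highest hspa5 (2359, 199 and 734).

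The C/EBP genes encode leucine zipper factors. Cebpa (ENSDARG00000036074), which in mammals drives gluconeogenic and urea cycle genes, was the lowest member in each group. It stood at 3.36, 3.73 and 1.36 scaled FPKM in focad null, at 4.49, 1.35 and 1.65 in pdia6 null and at 1.47, 1.28 and 1.33 in wild type. Wild type was tight, and 2 libraries of each null stood above it, pdia6 null 3 by a small margin. The mean was 2.82 ± 1.27 in focad null, 2.495 ± 1.74 in pdia6 null and 1.36 ± 0.098 in wild type (SD, n = 3 each). The log2 difference from wild type was 0.63 ± 0.37 in focad null (limma adjusted p = 0.470). In pdia6 null it was 0.46 ± 0.37 (adjusted p = 0.684), and 0.08 without the library labelled pdia6 null 1. In the FPKM as deposited, focad null and wild type did not overlap for cebpa (lowest 1.503 in focad null, highest 1.487 in wild type), whereas after rescaling they did. Its fewest reads were 149 in wild type 2, with a Poisson 95% interval of 126 to 175 that covers counting error only.

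Cebpb (ENSDARG00000042725), which in mammals acts on acute-phase genes, had the highest mean of the members in each group. It stood at 133, 105 and 101 scaled FPKM in focad null, at 116, 69.8 and 56.5 in pdia6 null and at 85.9, 64.3 and 87.5 in wild type. Each focad null library was above each wild-type library, while pdia6 null overlapped both groups. The mean was 113 ± 17.2 in focad null and 79.3 ± 13.0 in wild type (SD, n = 3 each), a log2 difference of 0.51 ± 0.31 (SE, 95% interval -0.19 to 1.204). The limma adjusted p was 0.490 and the two-sided exact permutation p was 0.1. Cebpb was the only member that did not overlap between focad null and wild type, 1 of 8, where 20.0% of all genes did not. Without the library labelled focad null 2 the log2 difference was 0.56.

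Prox1a (ENSDARG00000055158), a homeobox factor of liver bud cells and lymphatic vessels, stood at 25.8, 5.27 and 29.5 scaled FPKM in focad null. It stood at 13.6, 20.6 and 11.6 in pdia6 null and at 21.4, 13.8 and 11.1 in wild type. Focad null 1 and 3 were the 2 highest libraries and the one labelled focad null 2 was the lowest, as for foxa2. The log2 difference from wild type was 0.12 ± 0.58 in focad null (limma adjusted p = 0.954) and 0.85 without that library (adjusted p = 0.322). In pdia6 null it was -0.00095 ± 0.58, with an adjusted p of 1 and a 95% interval of -1.32 to 1.31.

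Nr1h4 (ENSDARG00000057741), the gene of the bile acid receptor, stood at 17.0, 16.2 and 19.9 scaled FPKM in focad null, at 19.2, 21.9 and 22.3 in pdia6 null and at 18.4, 13.1 and 10.6 in wild type. The 3 pdia6 null libraries were above all 3 wild-type libraries, by a small margin over wild type 1. The mean was 21.1 ± 1.68 in pdia6 null and 14.0 ± 3.95 in wild type (SD, n = 3 each), a log2 difference of 0.59 ± 0.23 (SE, 95% interval 0.07 to 1.11). The limma adjusted p was 0.344 and the two-sided exact permutation p was 0.1. This was the only member that did not overlap between pdia6 null and wild type, 1 of 8, where 20.6% of all genes did not. Leaving out each library in turn gave log2 differences from 0.42 to 0.79, all positive, with no adjusted p under 0.138. Focad null against wild type gave a log2 difference of 0.34 ± 0.23 (adjusted p = 0.545).

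The members moved in no common direction. The log2 difference was positive for 5 and negative for 3 in focad null against wild type, positive for 4 and negative for 4 in pdia6 null against wild type, and positive for 5 and negative for 3 in focad null against pdia6 null. Their median was 0.14 in focad null against wild type, 0.07 in pdia6 null against wild type and 0.07 in focad null against pdia6 null. Over all genes tested, the medians were 0.01, -0.01 and 0.01 in the same order. The median size of the difference, without its sign, was 0.32, 0.34 and 0.21 for the members against 0.27, 0.25 and 0.30 for all genes. The intervals were wide. They spanned from 1.04 log2 units for nr1h4 to 2.90 for foxa1, and for foxa1 in pdia6 null against wild type they ran from 0.70-fold to 5.22-fold. The absence of a call therefore leaves room for differences of that size.

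**Figure D3:**
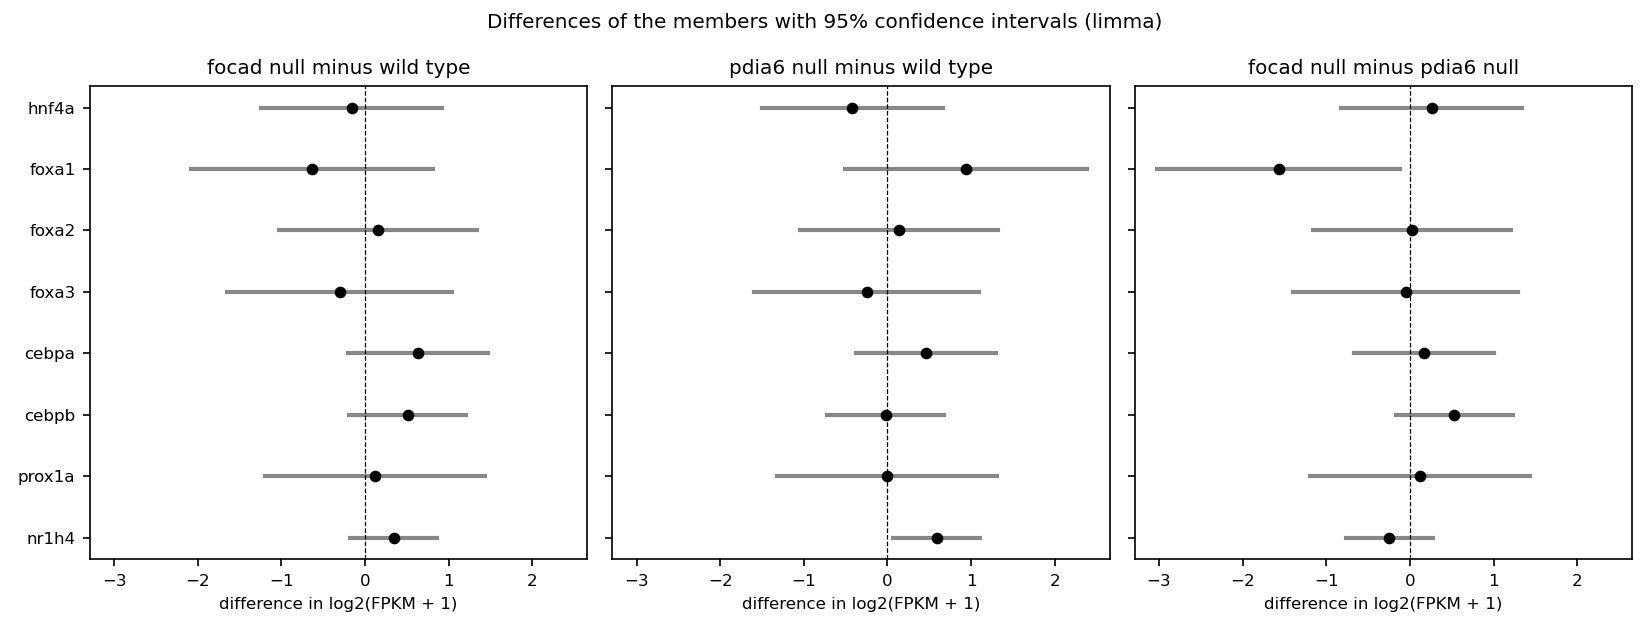
Log2 differences of the 8 members in the 3 comparisons (points) with 95% confidence intervals from limma (bars), on the log2(scaled FPKM + 1) scale. The intervals of 2 points exclude 0, nr1h4 in pdia6 null against wild type (0.07 to 1.11) and foxa1 in focad null against pdia6 null (-3.02 to -0.12), and neither passes adjustment.

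Over all 9 libraries, the 2 doubtful ones included, the spread between libraries of the same group was larger for most members than for genes of like level. The within-group SD of log2(scaled FPKM + 1) had a median of 0.68 over the 8 members and of 0.35 over all genes tested. It was above the median of genes of like mean level (within 0.5 log2 units) for 6 of 8. The widest was foxa1 at 0.90, where 90.3% of 1360 genes of like level had a smaller SD. Foxa3 followed at 0.83 (87.1%), prox1a at 0.81 (86.8%), foxa2 at 0.72 (83.1%) and hnf4a at 0.64 (76.2%). Cebpb at 0.36 and nr1h4 at 0.24 were below the median of their like-level genes, with 31.7% and 19.8% of those genes smaller. Over all 9 libraries, the highest level was 6.82 times the lowest for foxa3, 6.66 times for foxa1 and 5.60 times for prox1a. For nr1h4 it was 2.09 times. The fewest reads behind a value were 1059 for foxa3, 590 for foxa1 and 1019 for nr1h4. Foxa3 and nr1h4 were thus counted at like depth, and foxa1 at a lower one. The difference in spread was not tested. For some members the spread leans on a doubtful library. The library labelled focad null 2 was far below its group for foxa2 (8.39 against 29.95 and 35.1) and prox1a (5.27 against 25.8 and 29.5). The one labelled pdia6 null 1 was above its group for foxa3 (49.1 against 7.19 and 15.7) and cebpa (4.49 against 1.35 and 1.65). For foxa1, wild type 2 stood apart (39.3 against 6.66 and 7.93). The SDs were not taken without the doubtful libraries.

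**Figure D4:**
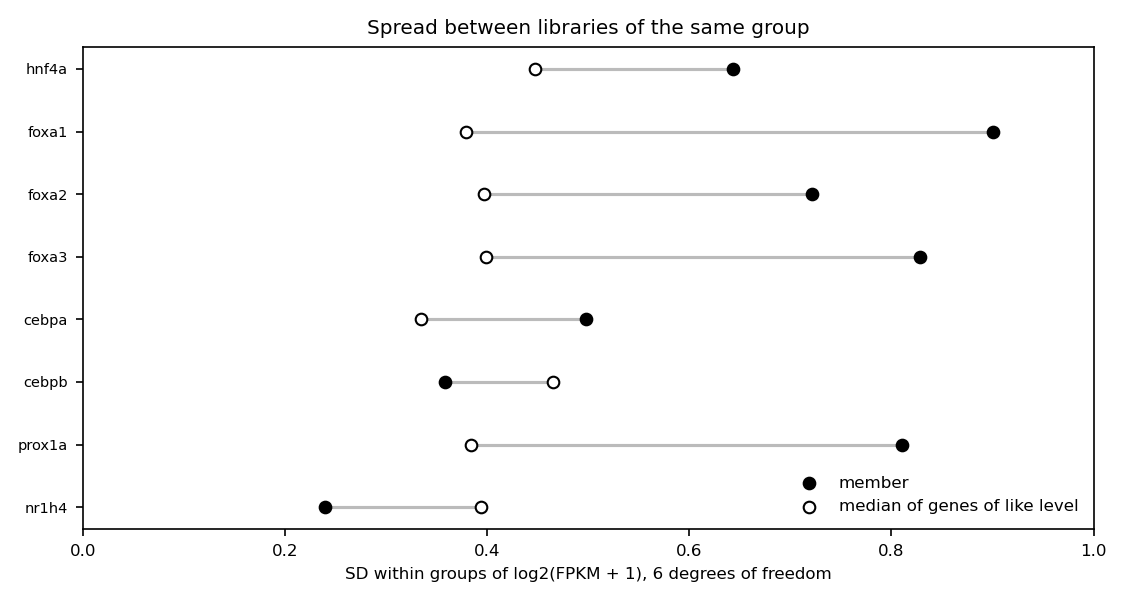
Within-group SD of log2(scaled FPKM + 1) over all 9 libraries, the doubtful ones included, with 6 residual degrees of freedom. Each member is filled and the median of genes of like mean level is open. Foxa1, foxa3, prox1a and foxa2 lie between 0.72 and 0.90, above like-level medians of 0.38 to 0.40, while nr1h4 (0.24) and cebpb (0.36) lie below theirs.

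FPKM is per length, so levels of different members can be set side by side. In wild type the order was cebpb (79.3 ± 13.0 scaled FPKM), hnf4a (65.1 ± 30.8), foxa3 (22.6 ± 8.06), foxa2 (19.2 ± 5.51) and foxa1 (17.98 ± 18.5). Below these came prox1a (15.4 ± 5.33), nr1h4 (14.0 ± 3.95) and cebpa (1.36 ± 0.098; all SD, n = 3). Of the 7 neighbouring pairs, 2 did not overlap, hnf4a above foxa3 and nr1h4 above cebpa. The order of cebpb and hnf4a, and that from foxa3 down to nr1h4, is thus not resolved by 3 libraries. Cebpb in wild type was above 94.7% of the genes tested and cebpa above 28.4%. In focad null and in pdia6 null, cebpb and hnf4a again had the highest means, in that order, and cebpa the lowest. Cebpb and hnf4a did not overlap in focad null but did in pdia6 null. In focad null, 4 of 7 neighbouring pairs did not overlap, and in pdia6 null 1 of 7.

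Likeness between genes was taken as the mean absolute difference of their log2 values over the 9 libraries, each gene centred on its own mean, so that a small value means a like pattern. Among the members, foxa2 and prox1a were the most alike pair at 0.28, where a gene with no change at all would lie at 0.50 from foxa2 and at 0.55 from prox1a. The next pair, cebpa and cebpb, lay at 0.29, barely under the 0.32 of such a flat gene from cebpb. The ratio of foxa2 to prox1a stayed between 1.01 and 2.34, while the highest foxa2 level was 4.18 times and the highest prox1a level 5.60 times the lowest. For both genes the lowest was the doubtful library labelled focad null 2 (8.39 for foxa2 and 5.27 for prox1a), so their likeness leans on it. Likeness was not taken without that library. Foxa1 and foxa3 were the least alike of the 28 pairs, at 1.31. The 9 points share their scaling, so these are descriptions without a p.

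Outside the members, the gene most like nr1h4 was mrps5, a protein of the mitochondrial ribosome, at 0.07, and then rpap3 at 0.08. Hnf4a was most like gcdh (ENSDARG00000037057), a mitochondrial enzyme of lysine breakdown, at 0.11, and then got2, the mitochondrial aspartate aminotransferase, at 0.16. A second gene ID with the symbol gcdh had another pattern. It was highest in wild type 1 (44.6) and lowest in pdia6 null 3 (13.7), where hnf4a stood at 32.1 and 63.8. Got2 stood at 88.0, 49.8 and 72.9 scaled FPKM in focad null, 23.9, 67.1 and 60.0 in pdia6 null and 36.4, 109 and 99.2 in wild type. It had the same 2 lowest libraries as hnf4a, which follows in part from its being picked for likeness. Prox1a was most like asmtl at 0.13 and polr1b, a subunit of RNA polymerase I, at 0.21.

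Foxa3 was most like edem3, which acts in the disposal of misfolded glycoproteins in the endoplasmic reticulum, at 0.16, and cbx7a, a polycomb protein, at 0.20. Edem3 read 7.71, 9.44 and 8.54 scaled FPKM in focad null, 22.4, 5.22 and 5.90 in pdia6 null and 11.99, 6.51 and 11.5 in wild type. Its 3 highest libraries are those of foxa3, which follows in part from its being picked for likeness. Foxa2 was most like rmdn2 and aco1, a cytosolic aconitase, both at 0.17. For cebpb the nearest genes were cacna1ha, a calcium channel subunit, at 0.14 and alg14, of N-glycan assembly, at 0.15. For cebpa they were agap2 at 0.16 and hmgb3 (ENSDARG00000056725), a chromatin protein, at 0.17. Foxa1 had no near match, with foxd5 at 0.40 and gbp at 0.42.

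Other transcription factors of the liver, from a list of 48, gave 41 tested genes. By limma, 0 of 41 were called in each comparison, and voom called 0 as well. Before adjustment, p was under 0.05 for 5 of 41 in focad null against wild type, 5 in pdia6 null against wild type and 9 in focad null against pdia6 null. The shares over all genes were 14.7%, 12.5% and 17.9%. The libraries did not overlap for 7 of 41 in focad null against wild type (17.1%, against 20.0% of all genes) and for 10 of 41 in pdia6 null against wild type (24.4%, against 20.6%). It was 9 of 41 in focad null against pdia6 null (22.0%, against 24.4%). The medians were 0.00, 0.02 and 0.09 in the same order.

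Cebpd, another C/EBP gene, which responds to inflammation in mammals, came nearest to a call. It stood at 199, 192 and 163 scaled FPKM in focad null, at 62.7, 82.1 and 96.0 in pdia6 null and at 180, 181 and 187 in wild type. All pdia6 null libraries were below all others. The log2 difference of pdia6 null from wild type was -1.197 ± 0.23 (limma adjusted p = 0.0537), and that of focad null from pdia6 null was 1.21 ± 0.23 (adjusted p = 0.0510). Nr2f2, an orphan nuclear receptor, averaged 8.40 ± 3.31 in focad null and 33.2 ± 16.5 in pdia6 null (SD, n = 3 each), a log2 difference of -1.82 ± 0.42 (adjusted p = 0.0907). Without focad null 3, nr2f2 passed (adjusted p = 0.0460), and so did cebpd in the same comparison (adjusted p = 0.0434). Without the library labelled focad null 2, cebpd passed in pdia6 null against wild type (adjusted p = 0.0491). Each of these was called in 1 of 9 fits with a library left out. In focad null against pdia6 null, adjusted p ran up to 0.246 for nr2f2 and 0.204 for cebpd, and for cebpd in pdia6 null against wild type up to 0.175. Without both doubtful libraries none passed (adjusted p = 0.243, 0.133 and 0.0770 in the same order).

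For rxra (ENSDARG00000057737), the partner receptor of FXR and other nuclear receptors, the mean was 6.32 ± 2.21 in pdia6 null and 2.54 ± 0.27 in wild type (SD, n = 3 each; limma adjusted p = 0.122). Without the library labelled pdia6 null 1, rxra passed, with a log2 difference of 1.27 (adjusted p = 0.0422), and likewise without both doubtful libraries (adjusted p = 0.0353). With single libraries left out, rxra was called in 1 of 9 fits, with adjusted p up to 0.334. Creb3l3b, a membrane-bound factor of fasting and acute-phase genes, averaged 8.90 ± 4.54 in focad null and 3.49 ± 1.23 in wild type (adjusted p = 0.181). Hnf4b, a sister gene of hnf4a chosen here after its values were seen, stood at 62.1, 31.4 and 70.3 scaled FPKM in focad null. It stood at 62.7, 61.7 and 76.5 in pdia6 null and at 41.1, 19.4 and 29.1 in wild type. Each pdia6 null library was above each wild-type library, and the log2 difference was 1.19 ± 0.37 (adjusted p = 0.217).

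Genes through which hepatocyte factors are known to act were taken from lists of plasma proteins, bile acid genes, gluconeogenesis and glycogen genes, and amino acid enzymes, with 108 genes tested in all. Focad null against wild type had 2 of 108 that fell and 0 that rose, where 0.933% of all genes fell. In pdia6 null against wild type and in focad null against pdia6 null, 0 of 108 were called by limma. Before adjustment, p was under 0.05 for 22 of 108 in focad null against wild type. It was under 0.05 for 19 in pdia6 null against wild type and for 23 in focad null against pdia6 null. The shares over all genes were 14.7%, 12.5% and 17.9% in the same order. Voom called 0 of 108 in each comparison. Both called genes were plasma proteins. Hp, haptoglobin, which binds free haemoglobin, stood at 2.09, 14.95 and 12.02 scaled FPKM in focad null and at 1492, 629 and 529 in wild type, with a log2 difference of -6.52 ± 1.27 (adjusted p = 0.0480). C3a.3, a complement C3 gene, stood at 245, 186 and 233 in focad null and at 647, 583 and 530 in wild type, with a log2 difference of -1.41 ± 0.25 (adjusted p = 0.0340). The fall of c3a.3 was not particular to focad null. Pdia6 null, at 288, 192 and 279, was also below each wild-type library (log2 difference -1.23 ± 0.25, adjusted p = 0.0666). Hp stood at 460, 15.7 and 482 in pdia6 null (log2 difference from wild type -2.35, adjusted p = 0.509). By limma, both calls in focad null lie close to the threshold. With each library left out in turn, hp was called in 2 of 9 fits and c3a.3 in 3 of 9, with adjusted p up to 0.182 for hp and 0.114 for c3a.3. Without the libraries labelled focad null 2 and pdia6 null 1, neither was called, at a log2 difference of -6.97 for hp (adjusted p = 0.0888) and -1.29 for c3a.3 (adjusted p = 0.0622). In the authors' deposited table of focad null against wild type, hp was far below the threshold (adjusted p of their test 1.97e-05, log2 ratio of means -6.52), while c3a.3 was not called.

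By list, 34 of 43 plasma protein genes had a negative log2 difference in focad null against wild type (median -0.52) and 28 of 43 in pdia6 null against wild type (median -0.33). The bile acid list (21 tested) had medians of 0.08 and -0.13 in the same 2 comparisons, and the gluconeogenesis and glycogen list (19 tested) of 0.09 and -0.35. The amino acid enzymes (26 tested) had medians of -0.34 and -0.55. The 4 medians of focad null against pdia6 null were -0.19, 0.25, 0.41 and 0.54. All-gene medians were 0.01, -0.01 and 0.01. Among the genes named by the lowest p, pck1, the rate-limiting enzyme of gluconeogenesis, averaged 1300.1 ± 235 scaled FPKM in focad null and 59.25 ± 71.4 in pdia6 null (limma adjusted p = 0.106). Wild type stood at 49.5, 750 and 1624 and overlapped both nulls (adjusted p = 0.585 for focad null and 0.307 for pdia6 null). Prodha, a proline dehydrogenase, averaged 5.01 ± 1.47 in pdia6 null and 40.7 ± 11.8 in wild type (SD, n = 3 each; adjusted p = 0.0876). Without the libraries labelled focad null 2 and pdia6 null 1, prodha was called, with a log2 difference of -2.75 (adjusted p = 0.0255). With single libraries left out it was called in 1 of 9 fits, with adjusted p up to 0.267. Prodha was also called in the authors' deposited table of pdia6 null against wild type (adjusted p of their test 1.19e-05). For pck1 in focad null against pdia6 null, leaving out wild type 1 gave an adjusted p of 0.0328. That was 1 of 9 fits with a library left out, and in the others adjusted p ran up to 0.261. Without both doubtful libraries it was 0.298.

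The genes on which FXR acts in mammals can be set beside nr1h4 itself. Abcb11, the bile salt export pump, stood at 20.2, 6.49 and 8.13 scaled FPKM in focad null, at 19.4, 55.1 and 24.7 in pdia6 null and at 44.6, 64.9 and 58.7 in wild type. Each focad null library was below each wild-type library, and pdia6 null overlapped both. The log2 difference in focad null was -2.32 ± 0.48 (limma adjusted p = 0.0609), which did not pass. It passed without focad null 1 (adjusted p = 0.0449) or pdia6 null 2 (adjusted p = 0.0460), 2 of 9 fits with a library left out. In the others adjusted p ran up to 0.179, and without both doubtful libraries it was 0.125. A second gene of that name, abcb11a, went the other way at a low level. Its mean was 1.83 ± 2.57 in focad null and 0.062 ± 0.024 in wild type (SD, n = 3 each), without overlap (adjusted p = 0.400). Slc51a, a subunit of the bile acid exporter of the basolateral membrane, stood at 128, 118 and 152 in focad null, 220, 103 and 103 in pdia6 null and 308, 212 and 266 in wild type. The log2 difference from wild type was -0.97 ± 0.34 in focad null (adjusted p = 0.244) and -0.96 ± 0.34 in pdia6 null (adjusted p = 0.282). All focad null libraries were below wild type, while 1 pdia6 null library overlapped it.

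Fgf19, a hormone gene that FXR induces in mammals, stood at 0.99, 0.029 and 0.58 scaled FPKM in focad null, at 0, 1.197 and 0.35 in pdia6 null and at 1.34, 35.7 and 8.91 in wild type. Both nulls were below wild type without overlap, and wild type itself spread widely. The log2 difference was -2.68 ± 0.85 in focad null (limma adjusted p = 0.203) and -2.72 ± 0.85 in pdia6 null (adjusted p = 0.222). Without wild type 1 both passed, with adjusted p of 0.0326 in focad null and 0.0325 in pdia6 null. In each comparison fgf19 was called in 1 of 9 fits with a library left out, with adjusted p up to 0.430 in focad null and 0.489 in pdia6 null. Without both doubtful libraries neither passed (adjusted p = 0.368 in focad null and 0.347 in pdia6 null). The sulfotransferase gene sult2st2 averaged 40.5 ± 13.0 in focad null and 18.5 ± 3.29 in wild type (SD, n = 3 each; adjusted p = 0.114). Of the 21 bile acid genes tested, 13 had a positive log2 difference in focad null against wild type and 8 a negative one. The positive ones included abcc2 at 0.59 (limma adjusted p = 0.415), abcb4 at 0.21 (adjusted p = 0.923) and fabp6, also on the intestine list, at 1.84 (adjusted p = 0.456).

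Nr0b2, the small heterodimer partner, stood at 9.13, 81.7 and 1.98 scaled FPKM in focad null, at 0.15, 0.74 and 0.20 in pdia6 null and at 0.70, 0.42 and 0.50 in wild type. Focad null was above both other groups, with a log2 difference from wild type of 3.14 ± 0.98 (limma adjusted p = 0.196). It was 1.84 without the library labelled focad null 2 (adjusted p = 0.129), and 4.24 without focad null 3, where it passed (adjusted p = 0.0224). Nr0b2 was called in 1 of 9 fits with a library left out, with adjusted p up to 0.414. Within focad null, the intestinal fatty acid binding gene fabp2 ran in the same order, at 237, 3640 and 71.1, against 0.22 to 3.45 in pdia6 null and 2.60 to 6.05 in wild type. Intestine also expresses nr0b2 in mammals, and the part of intestinal RNA in the nr0b2 level was not tested. A second gene of that name, nr0b2b, went the other way at a low level. Its mean was 0.025 ± 0.026 in focad null, 0.49 ± 0.53 in wild type and 4.94 ± 7.37 in pdia6 null (SD, n = 3 each). Focad null was below both other groups without overlap (limma adjusted p = 0.833 against wild type and 0.272 against pdia6 null). Cyp7a1, the rate-limiting enzyme of bile acid synthesis, which FXR represses in mammals, was low, at 0.66, 1.96 and 0.36 in focad null, 0.03, 1.11 and 0.81 in pdia6 null and 0.04, 0.72 and 0.35 in wild type.

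**Figure D5:**
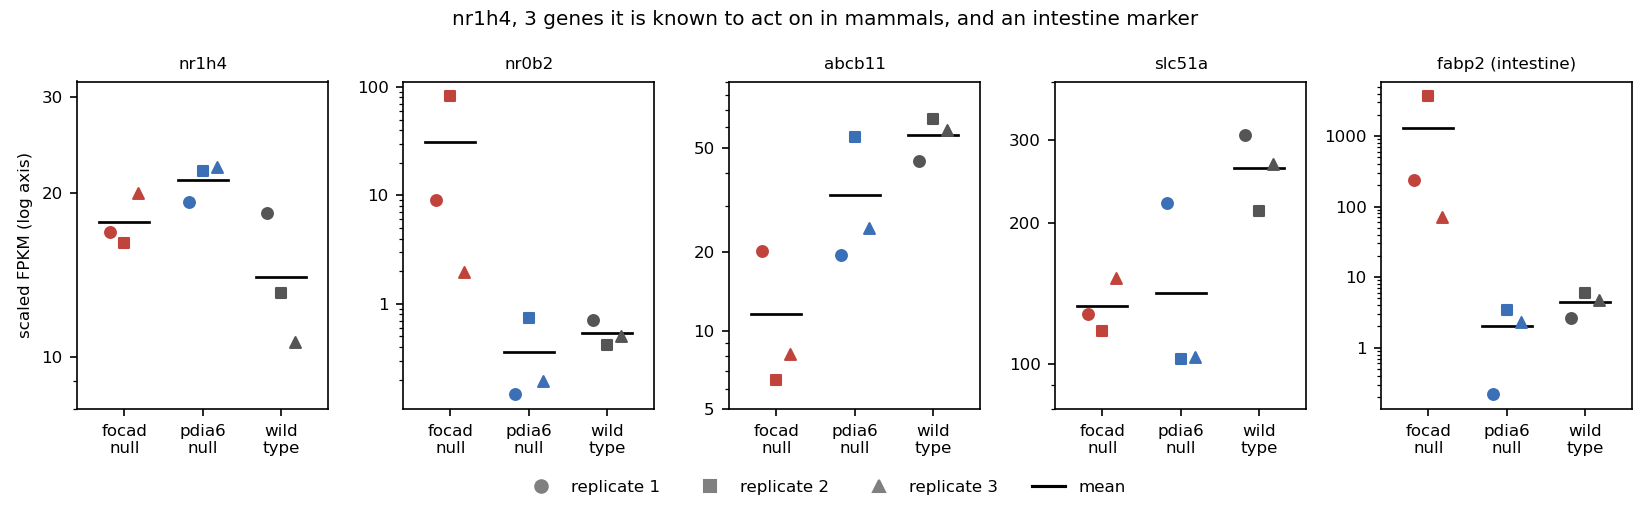
Scaled FPKM (log axis, a separate scale for each gene) of nr1h4, of nr0b2, abcb11 and slc51a, which FXR is known to act on in mammals, and of the intestine marker fabp2, by group and library, with a line at each group mean. In focad null, abcb11 and slc51a lie below all wild-type libraries and nr0b2 lies above them, with nr0b2 and fabp2 in the same library order, while 2 pdia6 null libraries (103 each) lie below all focad null libraries for slc51a.

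Several members are also expressed outside hepatocytes, the foxa genes and hnf4a in intestine and pancreas and prox1a in lymphatic vessels. Beside the intestine and exocrine pancreas sums given above, exocrine pancreas markers had 2 of 20 higher in focad null than in wild type, spink4 and amy2al2, where 0.625% of all genes were higher. With each library left out in turn, spink4 was called in 1 of 9 fits and amy2al2 in 2 of 9. Neither was called without both doubtful libraries (adjusted p = 0.141 for spink4 and 0.0600 for amy2al2). Of 26 intestine markers, 25 had a positive log2 difference in focad null against wild type (median 2.76). In that comparison 0 of 26 passed the test, and 18 had p under 0.05 before adjustment, against 14.7% of all genes. The nearest was fabp2 (limma adjusted p = 0.0504), which passed without both doubtful libraries (log2 difference 4.64, adjusted p = 0.0134). Fabp2 alone, 1 of 26, was called higher in focad null than in pdia6 null, where 0.609% of all genes were higher. The library labelled focad null 2, with the highest intestine sum, was the lowest of the 9 in foxa2 and prox1a. Focad null 1, with the highest exocrine sum, was the highest in cebpb. The summed endothelial and lymphatic markers were 25.3 to 30.3 scaled FPKM in focad null, 24.99 to 29.2 in pdia6 null and 26.004 to 34.2 in wild type. By limma, 0 of 11 were called in each comparison. Before adjustment, p was under 0.05 for 0 in focad null against wild type, 2 in pdia6 null against wild type and 3 in focad null against pdia6 null. The shares over all genes were 14.7%, 12.5% and 17.9% in the same order.

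By limma, the 12 bile duct, 8 leukocyte and 7 endocrine pancreas markers had 0 calls in each comparison. Before adjustment, p was under 0.05 for 4, 1 and 7 of them in focad null against wild type, in pdia6 null against wild type for 2, 0 and 0, and in focad null against pdia6 null for 6, 0 and 7. The shares over all genes were 14.7%, 12.5% and 17.9% in the order of these comparisons. All 7 endocrine pancreas markers were thus under 0.05 wherever focad null was compared. Voom called 0 markers of any list. Bile duct sums were 1399 to 2279 scaled FPKM in focad null, 1318 to 2173 in pdia6 null and 2001 to 3709 in wild type, and spp1 of that list was at 0 in all libraries. Leukocyte sums were 107 to 1413, 115 to 142 and 115 to 237 in the same order, with lyz and rag1 at 0. Endocrine sums were 11.95 to 254, 7.37 to 12.7 and 1.43 to 6.78. Stellate and fibroblast sums were 671 to 949.6, 1185 to 1303 and 1577 to 1912, but fn1, which the liver also secretes, made up 65.8% to 98.4% of them. Without fn1 the sums were 65.4, 229 and 24.4 in focad null, 22.9 to 28.4 in pdia6 null and 30.6 to 39.7 in wild type. Of 12 tested genes of that list, 1, col1a1, was called higher in focad null than in pdia6 null, where 0.609% of all genes were higher. Erythroid sums were 48.6 to 127, 212 to 622 and 137 to 236. Of 7 tested genes, 1, hbaa2, was called higher in focad null than in wild type, where 0.625% of all genes were higher. It was called in 3 of 9 fits with a library left out. Hbaa2 was low, at 0.98 to 1.83 scaled FPKM in focad null and 0.04 to 0.26 in wild type. It went against its list, where 1 of 7 tested genes had a positive log2 difference and 6 a negative one (median -0.70). The part of these cell types in the member levels was not tested.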

How the data were processed

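Per the labels, liver RNA of zebrafish was sequenced in 9 libraries, 3 per group. The genome build danRer11 and the tools HTSeq 0.6.1, TopHat2 2.0.12 and Bowtie2 2.2.3 appear in the submitters' processing notes, without role or order. For the annotation and strand setting, the sources used here give nothing. FPKM per gene and library were deposited by the authors. Per the file headers, their tables for each null against wild type hold a group mean read count, a signal scaled by the authors in each table, with p-values before and after adjustment. Log2 ratios of those tables were recomputed from the deposited means.

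Reads were recovered from the steps of the FPKM values for all 33716 IDs within 0.05 read, giving 46.1 to 54.5 M per library. Genes averaging at least 0.5 scaled FPKM were tested in R 4.3.3 with limma 3.58.1, using its trended and robust eBayes, on log2(scaled FPKM + 1), with 3 group means, 9 libraries and 6 residual degrees of freedom. A log2 difference on this scale understates the change of low genes. Tests were two-sided. Tables were handled with pandas 2.3.3 in Python 3.11.15 and drawn with matplotlib 3.10.9. On counts simulated from these libraries for focad null against wild type (12936 genes), the test recovered 6.12% of genes at a 2-fold change, 52.0% at 4-fold and 73.5% at 8-fold. Of its 114 calls, 6 were false. The changed genes were drawn from the tested genes at large, not from the members. The median within-group SD was 0.68 for the members and 0.35 for all genes, so these rates may be too high for the members. Within groups, pairs of libraries differed far beyond sampling noise (chi-square per degree of freedom 139 to 725).

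Of the 9 genes named by the rule, 1 is not reported here. The members and lists were chosen with earlier results of these data known. Named were all members, up to 3 called genes per list and direction (else the 2 with the lowest p, as values, not all of them printed), the 2 genes most like each member, and the targeted genes. Hnf4b and genes set beside a member (hspa5, hsp90b1, xbp1, cyp7a1, nr0b2b, abcb11a, abcc2, abcb4, fabp6) were added after their values were seen. Alternatives were other pseudocounts, filters, scalings and variance models, a replicate block, limma voom on recovered reads, single libraries left out, both doubtful libraries left out, and the authors' tables. No genome came with the data, so no coordinates or sequences are given.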

Additional observations from a re-analysis of the deposited data

Results flagged for a closer look

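The effects of the 2 nulls differed for 2 markers of other cell types, by limma's test of focad null against pdia6 null. For fabp2, an intestine marker, the focad null effect minus the pdia6 null effect was 7.24 on the log2 scale (adjusted p = 0.0355), with 71.1 to 3640 scaled FPKM in focad null and 0.22 to 3.45 in pdia6 null. It was 5.64 without the library labelled focad null 2 (adjusted p = 0.0100), and it was called in 2 of 9 fits with a library left out. For col1a1, a collagen gene of fibroblasts, the difference was 1.197 (adjusted p = 0.0499), with means of 2.58 ± 0.97 in focad null and 0.53 ± 0.13 in pdia6 null (SD, n = 3 each). It was called in 1 of 9 fits with a library left out, and without the libraries labelled focad null 2 and pdia6 null 1 the difference was 0.97 (adjusted p = 0.173). No member met such a rule, and groups of 3 are too small for a test of outlying libraries.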

How the results depend on the processing

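Members called stayed at 0 in each comparison under every alternative run. Of the 24 member differences, 13 turned sign under at least 1 alternative, in 41 of 496 values, none of them called. Outside single omissions these were, with FPKM as deposited, cebpb (0.091) and prox1a (0.11, both pdia6 null against wild type). With upper quartile scaling they were prox1a (0.0059, pdia6 null against wild type) and foxa2 (-0.033, focad null against pdia6 null, and -0.013 with voom). Without the libraries labelled focad null 2 and pdia6 null 1, the 2 doubtful ones, they were hnf4a (0.041, focad null against wild type), prox1a (0.058, pdia6 null against wild type), and foxa3 (0.58) in focad null against pdia6 null. In the authors' deposited table they were foxa3 (0.072), cebpb (0.031) and prox1a (0.010), all pdia6 null against wild type. The causes were not tested.

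With single libraries left out, the signs that turned had these ranges. For focad null against wild type they were hnf4a (-0.59 to 0.16), foxa1 (-1.07 to 0.13), foxa2 (-0.20 to 0.77) and prox1a (-0.29 to 0.85). In pdia6 null against wild type they were foxa2 (-0.11 to 0.42), foxa3 (-0.95 to 0.36), cebpb (-0.32 to 0.20) and prox1a (-0.22 to 0.25). For focad null against pdia6 null they were hnf4a (-0.13 to 0.52), foxa2 (-0.34 to 0.63), foxa3 (-0.66 to 0.65), cebpa (-0.061 to 0.55) and prox1a (-0.29 to 0.85).

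Replicate numbers showed no steady pairing of the libraries: same-numbered correlations ran from -0.19 to 0.29, and 1 library correlated best with its own number in both other groups. With so few libraries, these correlations cannot exclude a shared batch, and the labels used here state no pairing. With the replicate block, 121, 82 and 82 of all genes were called in focad null against wild type, pdia6 null against wild type and focad null against pdia6 null, and 0 members in each. The counts of all genes in the same order were 207, 163 and 160 as reported and 93, 77 and 74 with voom. They were 428 in the authors' deposited table for pdia6 null, and for focad null against pdia6 null 254 with a pseudocount of 0.1 and 104 without both doubtful libraries. Output genes called in focad null against wild type (2 as reported) were 0 without a filter, with the block and with voom, and 1 with a mean of at least 1 FPKM, FPKM as deposited, the 6 libraries alone, or the authors' table. Without both doubtful libraries the count was also 1, but the gene was ttr, and both reported calls, hp and c3a.3, were lost. In pdia6 null against wild type (0 as reported) they were 1 with 6 libraries or plain eBayes and 2 without both doubtful libraries or in the authors' table (gckr and prodha). In focad null against pdia6 null (0) they were 2 with a pseudocount of 0.1 and 1 with 6 libraries or without both doubtful libraries. Other liver factors called (0 as reported) were 1 in the authors' table of focad null, 1 in pdia6 null against wild type with plain eBayes or without both doubtful libraries, and 1 in focad null against pdia6 null with a pseudocount of 0.1 or 0.5, a mean of at least 1 FPKM, FPKM as deposited or plain eBayes.

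With single libraries left out, all-gene calls ran from 90 to 485, 78 to 239 and 61 to 642 in the order above, other liver factors from 0 to 1, 0 to 2 and 0 to 4, and output genes from 0 to 4, 0 to 3 and 0 to 3. The order of the wild-type levels kept 2 separated pairs under both other scalings. At 46.1 to 54.5 M reads, counting error is small beside the spread between libraries, which sets the width of the intervals.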
